A study of Bos taurus with 20 samples.

Results

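Of 27607 gene IDs measured in bovine endometrium, 45 showed a stepwise decline from estrus into the luteal phase: high on day 0, lower on day 5, and lower again on both days 10 and 14. They were chosen by a rule on median CPM, a gene's count per 1000000 counts of its library. Over the 4 libraries of a day, 0.5 was added to each median. The day 0 value had to be at least 5 and under 1000 and at least 1.5 times that of day 5, and the day 5 value at least 2 times those of day 10 and of day 14. Of the 27607 IDs, 11769 lay in that day 0 range. All 45 passed the filter on low counts, which kept 16947 IDs for testing. A further 1075 genes met the conditions on days 0 and 5 but not the further decline, and are called single-step genes here. The rule read the libraries of days 0, 5, 10 and 14, so the differences between day 0 and day 5 and between day 5 and days 10 and 14 describe the choice and were not tested as findings. It used no day 18 library.

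The endometrium lines the uterus and changes through every estrous cycle under ovarian hormones. Around estrus, when the female is receptive, estrogen from the ovulatory follicle predominates and progesterone is low. After ovulation a corpus luteum forms, and its progesterone keeps rising through the early and middle luteal phase before the gland regresses late in the cycle. A transcript that is highest at estrus and lower at each luteal stage therefore runs opposite to the usual course of progesterone in cattle.

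The tissue came from virgin Holstein heifers of at least 7 months and at least 340 kg, sexually mature and not lactating. No animal carried a genetic change, and all groups shared the same hormonal synchronization: a GnRH analog (100 μg) with an intravaginal progesterone device (1.38 g), a prostaglandin F2α analog (500 μg) after 96 hours, and a second 500 μg dose with removal of the device at 120 hours. Animals were then allotted at random to an endometrial biopsy on day 0 (estrus), 5, 10, 14 or 18, with 4 per day and 1 library each. There was no unsynchronized group. No gene names accompany the IDs in the files, and 0 of them could be matched to a name table of 37063 cattle genes. Functions, markers of the tissue and its cell types, and sequences are therefore not described, and only 4 IDs are named.

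Library totals ran from 21234000 to 26644679 counts. Several libraries stood apart from others of their day, and this touches every result below. The median correlation of log2 CPM over all tested genes with the other libraries of the day was 0.968 to 0.974 on day 0 and 0.943 to 0.979 on day 14, but 0.871 to 0.885 on day 10, 0.869 to 0.918 on day 18 and 0.929 in day 5 replicate 1. Day 10 replicate 3 and day 18 replicate 3 were closest to each other (r = 0.975). Day 18 replicate 1 was closest to day 0 replicate 2 (r = 0.956), and day 5 replicate 1 to day 18 replicate 2 (r = 0.957). Day 18 replicate 2 was closest to day 14 replicate 1 (r = 0.977), and day 18 replicate 4 to day 14 replicate 3 (r = 0.978). No day 18 library was thus closest to another of its day. Day 10 replicate 2 was closest to day 14 replicate 2 (r = 0.971). Genes are not independent replicates, so these values only describe the libraries. In a biopsy, fewer cells of a type and less RNA per cell cannot be told apart.

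The stepwise genes ranged widely in abundance. Their day 0 median ran from 5.89 to 703 CPM, with a middle value of 51.3 CPM. With 0.5 added, 6 lay under 10, 22 between 10 and 100 and 17 between 100 and 1000. By day 5 the middle value was 19.8 CPM, and it was 5.01 and 5.06 CPM on days 10 and 14. Day 18 gave 8.35 CPM. Together the 45 genes added up to 5379 to 6574 CPM in the day 0 libraries and to 2147 to 3106 CPM in those of day 5. On day 10 the sum was 563 in replicate 1, 1608 in replicate 2, 755 in replicate 3 and 1080.2 in replicate 4. On day 14 it ran from 829 to 1233. Each day 0 sum exceeded each day 5 sum, which in turn exceeded those of days 10 and 14, as the choice of genes would tend to give. On day 18, which took no part in the choice, the sum was 6264 in replicate 1, 1694 in replicate 2, 665 in replicate 3 and 1022.5 in replicate 4. Replicate 1 thus lay within the day 0 range, replicate 2 between day 14 and day 5, replicate 4 within the day 14 range and replicate 3 under every day 14 library.

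**Figure D1:**
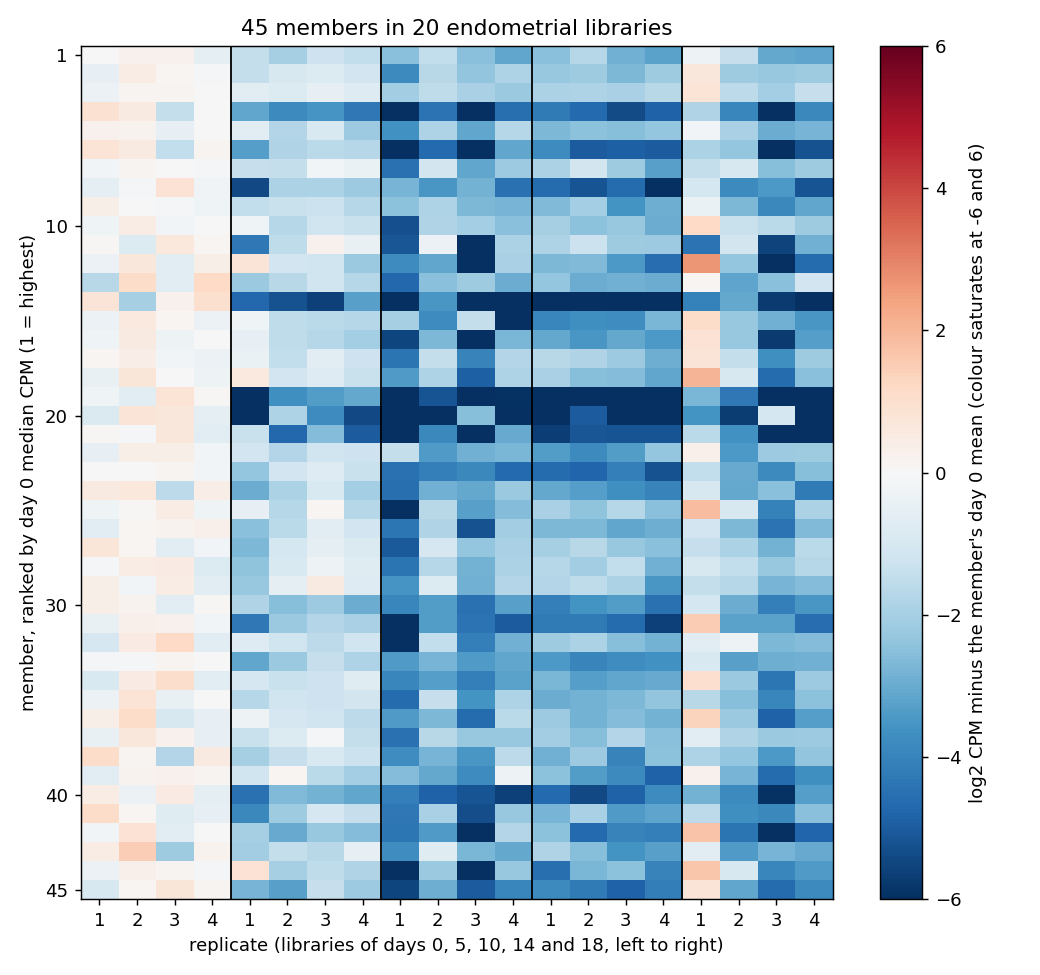
Each row is 1 of the 45 stepwise genes, ranked by day 0 median CPM, and each column 1 of the 20 libraries; colour gives log2 CPM minus the gene's day 0 mean, from blue (lower) to red (higher). Day 10 replicates 1 and 3 and day 18 replicate 3 are the darkest blue columns after day 0, and day 18 replicate 1 is the palest. In that replicate 13 genes (28.9%) are above every day 0 library, against 28.8% of all tested genes.

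Both steps varied in size from gene to gene. From day 0 to day 5 the ratio of medians, each with 0.5 added, ran from 1.5001 to 35.9 with a middle value of 2.47; it was at least 2 in 29 genes, at least 4 in 9 and at least 8 in 4. From day 5 to the higher of days 10 and 14 it ran from 2.0033 to 8.63 with a middle value of 2.21, and was at least 4 in 3 genes. The first ratio was the larger in 20 of the 45. Over the whole course from day 0 to day 14 the ratio ran from 3.12 to 149, and it was at least 4 in 35 genes, at least 8 in 19, at least 16 in 8 and at least 32 in 4. Many genes sat close to a limit. The nearest gene inside the first condition had a ratio of 1.5001 and the nearest outside 1.4775, and for the second condition these were 2.0033 and 1.9828. The lowest day 0 value inside was 6.39 and the nearest outside 3.14; 4 genes failed on the upper limit alone, the nearest at 1249.

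**Figure D2:**
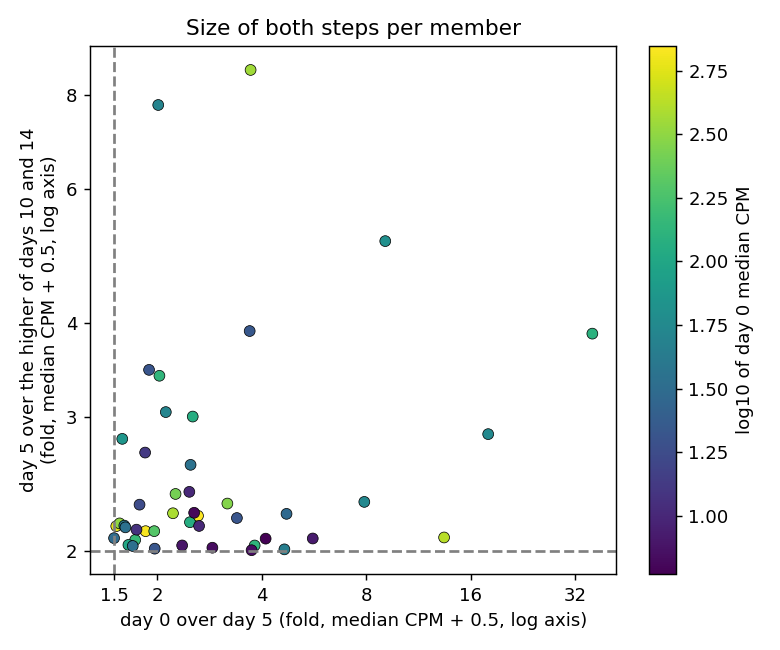
Each point is 1 of the 45 stepwise genes, with the fold from day 0 to day 5 on the horizontal log axis and the fold from day 5 to the higher of days 10 and 14 on the vertical log axis, coloured by log10 of day 0 median CPM. Dashed lines mark the limits of 1.5 and 2. On the vertical axis most genes lie not far above the limit of 2 (middle value 2.21). The 3 with a second fold of at least 4 reach up to 8.63.

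At the level of single libraries the decline was less regular than the medians. All 4 day 0 libraries lay above all 4 day 5 libraries in 21 of the 45 genes (6.47% of all tested genes did so). All 4 day 5 libraries lay above all 4 day 10 libraries in 14 genes (5.78% of all tested) and above all 4 day 14 libraries in 28 (8.54%). The rule used these contrasts, so nothing is read from the shares. In every library, 5 genes kept day 0 over day 5 and day 5 over days 10 and 14. When day 10 was left aside, 12 did so. Shares over all tested genes are not given for these counts, which only describe the 45. By edgeR's quasi-likelihood test with Benjamini-Hochberg adjustment, 6 of the 45 passed an adjusted p of 0.05 from day 0 to day 5 (4.14% of all tested genes were called lower), 1 from day 5 to day 10 (0.0059%) and 1 from day 5 to day 14 (0.602%); these too are contrasts of the rule.

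The highest level at estrus belonged to ENSBTAG00000020056. It was at 659, 747, 787 and 454 CPM in day 0 replicates 1 to 4, and at 271, 185, 314 and 266 CPM in those of day 5. On day 10 it was at 118, 265, 118 and 84.8 CPM, and on day 14 at 134, 225, 106 and 78.6 CPM. Day 0 lay clear of every day 5, day 10 and day 14 library, while day 10 replicate 2 and day 14 replicate 2 reached into the day 5 range. On day 18 it was at 511, 291, 72.1 and 82.4 CPM, so replicate 1 lay inside the day 0 range, replicate 4 inside that of day 14 and replicate 3 under every day 14 library. Its means (± SD, n = 4) were 662 ± 148 CPM at estrus and 239 ± 207 CPM on day 18. The fitted difference between them, 1.52 on the log2 scale with an SE of 0.53, did not pass (edgeR adjusted p = 0.118). Over 19 alternatives this adjusted p ran from 0.00682 to 1.0, and 3 of them passed. The gene was named for its day 0 level, so the size of this difference is not free of the choice.

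ENSBTAG00000015204 had the largest fold from day 0 to day 14 among genes of at least 1 on day 14 (median CPM with 0.5 added), at 46.5. It was at 56.3, 39.7, 119.9 and 71.0 CPM in day 0 replicates 1 to 4. On day 5 it was at 0.0445 CPM (1 count) in replicate 1 and at 5.75, 7.38 and 8.90 CPM in the others. Day 10 gave 0.0862, 1.98, 0.0934 and 1.16 CPM, and day 14 gave 1.16, 0.895, 0.862 and 0.258 CPM. Day 5 replicate 1 and day 10 replicates 1 and 3 were the 3 lowest of the 20 libraries, with 1 or 2 counts each. On day 18 the gene was at 9.52, 3.91, 0.808 and 0.406 CPM, all under the day 0 libraries. It was higher on day 0 than on day 18 by 4.31 on the log2 scale (SE 1.12, edgeR adjusted p = 0.0473). The call was kept in 8 of 19 alternatives, whose adjusted p ran from 0.000941 to 0.269. The gene was chosen as high on day 0, so this difference is not free of the choice.

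ENSBTAG00000020564 had the largest fitted difference of day 0 over day 18 among the stepwise genes called. Its day 0 libraries were at 146, 20.8, 104 and 164 CPM, so replicate 2 lay far below the other 3. It was at 3.56, 2.43, 1.93 and 10.1 CPM on day 5, at 0.388, 8.45, 0.0467 and 0.419 CPM on day 10 and at 0.602, 0.0813, 0.726 and 0.0430 CPM on day 14. Day 10 replicate 2 overlapped day 5, and the day 14 libraries held 32 counts in all. On day 18 it was at 4.82, 11.8, 1.44 and 0.948 CPM, each above every day 14 library. Day 0 exceeded day 18 by 4.64 on the log2 scale (SE 1.19, edgeR adjusted p = 0.0453). This difference passed in 7 of 19 alternatives, with adjusted p from 0.000658 to 0.257. The gene was picked from those called in this comparison, so its passing follows from the choice. From day 14 to day 18 its log2 fold change was 3.82 (SE 1.25, edgeR adjusted p = 0.453), which did not pass in any of 19 alternatives (adjusted p from 0.0864 to 1.0).

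ENSBTAG00000001010 had the largest fitted difference from day 14 to day 18, and that value rested on a single library. It was at 15.3, 24.6, 25.4 and 18.8 CPM on day 0 and at 1.11, 4.86, 7.04 and 6.18 CPM on day 5. The day 10 values were 0.0862, 2.16, 0.887 and 0.651 CPM and those of day 14 were 1.20, 1.18, 0.908 and 0.387 CPM. On day 18 it was at 56.4 CPM in replicate 1, above every day 0 library, against 2.59, 2.02 and 0.903 CPM in the others. Its log2 fold change from day 14 to day 18 was 4.33 (SE 1.15, edgeR adjusted p = 0.453), and over 19 alternatives it ran from 1.08 (voom) to 4.73, with adjusted p from 0.00745 (DESeq2) to 1.0; without day 18 replicate 1 it was 1.14.

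**Figure D3:**
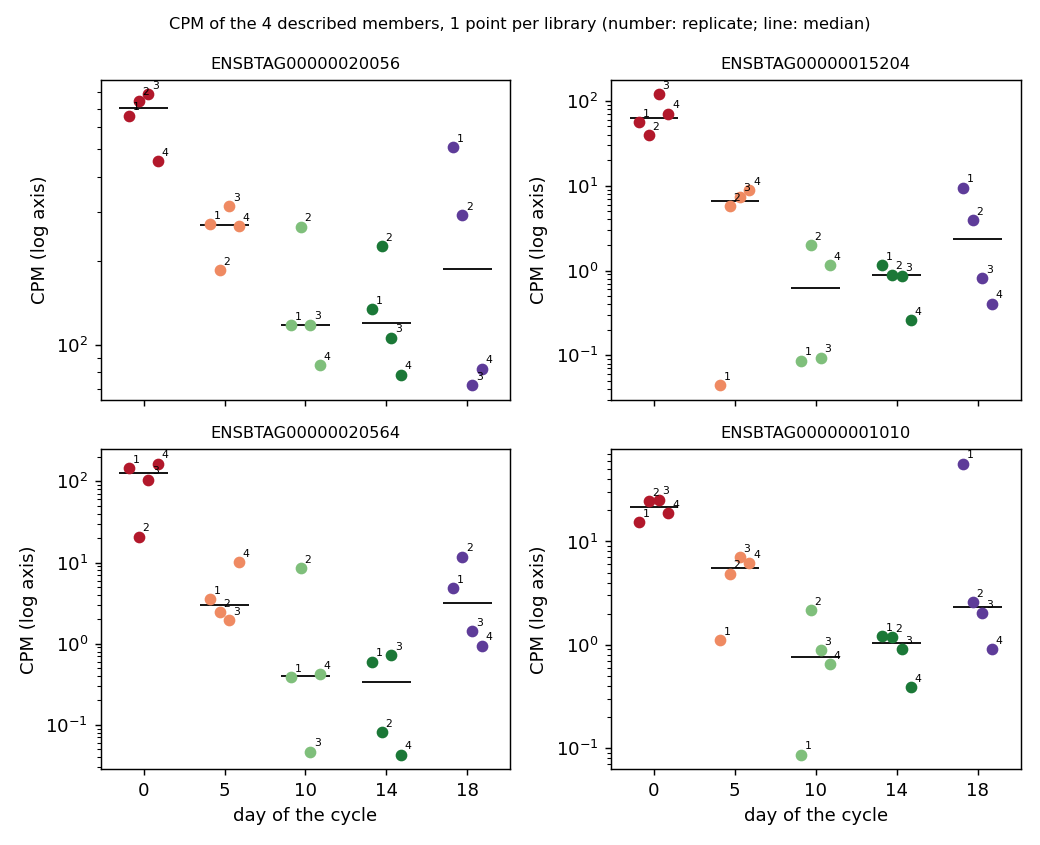
CPM on a log axis for the 4 named genes, 1 point per library with its replicate number beside it and a line at the median of each day. Day 18 spreads from the day 14 level up to or past the day 0 level in ENSBTAG00000020056 and ENSBTAG00000001010, with replicate 1 at 511 and 56.4 CPM, and stays under day 0 in the other two.

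Other stepwise genes showed different courses. The gene with the largest second fold (8.63) had a median of 353 CPM at estrus and of 94.6, 7.13, 10.5 and 38.0 CPM on the later days in order; its day 10 libraries were at 1.94, 12.3, 0.560 and 36.6 CPM. The gene ranked second in abundance was at 1013.5 CPM in day 18 replicate 1, above its day 0 libraries (474 to 864 CPM), and at 127 to 178 CPM in the other day 18 libraries. A gene with a day 0 median of 135 CPM was at 799 CPM in day 18 replicate 1 and at 1.84, 6.0 and 31.0 CPM in the others. A gene with a day 0 median of 148 CPM was lowest on day 18 (median 13.8 CPM, against 41.1 on day 14), and there replicate 1 was at 6.01 CPM and replicate 3 at 2.74 CPM. These genes were chosen after their values were seen.

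The rule did not set days 10 and 14 against each other. It did hold both to the same limit under day 5, which favours medians near each other. The day 14 median was above that of day 10 in 26 genes and below it in 19, and with 0.5 added both were within 1.5 times of each other in 39. By the edgeR test 0 of the 45 were called from day 10 to day 14. The share over all tested genes was also 0.0%, so this is not particular to the 45. An unadjusted p under 0.05 was seen in 2 of the 45 and in 1397 of the 16947 tested. DESeq2 and limma voom with quality weights also called 0 of the 45 (0.0885% and 0.13% of all tested). The median log2 fold change was −0.11 among them and −0.02 over all tested genes. The value depended on single libraries in both directions. It turned positive when day 10 replicate 2 (0.26), day 10 replicate 4 (0.04) or day 14 replicate 4 (0.03) was omitted. It was −0.33 without day 10 replicate 1, −0.30 without replicate 3, and −0.64, with 4 of the 45 positive, without these 2 and day 18 replicate 3.

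The spread behind this was larger on day 10 than on day 14, and larger in the stepwise genes than in most others. The SD of log2 CPM between the 4 libraries of a day had a median over the 45 genes of 1.46 on day 10 and 1.5045 on day 18, against 0.557, 0.725 and 0.516 on days 0, 5 and 14. Over all tested genes these medians were 0.460 and 0.550, against 0.280, 0.315 and 0.300. The single-step genes lay between, with 0.780 on day 10 and 0.795 on day 18. In 31 of the 45 genes, day 10 replicates 1 and 3 were both below replicates 2 and 4, as in 37.6% of all tested and 48.1% of single-step genes; in 2 genes both were above (21.7% of all tested). Relative to its day 0 mean, the median stepwise gene was at −4.37 and −3.75 log2 units in day 10 replicates 1 and 3 and at −2.68 and −2.60 in replicates 2 and 4. Against the lowest day 5 library, 40 genes were lower in replicate 1 and 40 in replicate 3 (37.4% and 43.0% of all tested), but 22 in replicate 2 and 27 in replicate 4 (25.3% and 24.6%). The rule took the median of these same libraries, and a gene low in 2 of the 4 passes it more easily, so these counts describe the choice and nothing is read from their shares. Membership depended on these libraries: without day 10 replicates 1 and 3 the rule found 20 genes, of which 15 were among the 45, and without replicates 2 and 4 it found 51, of which 41 were.

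**Figure D4:**
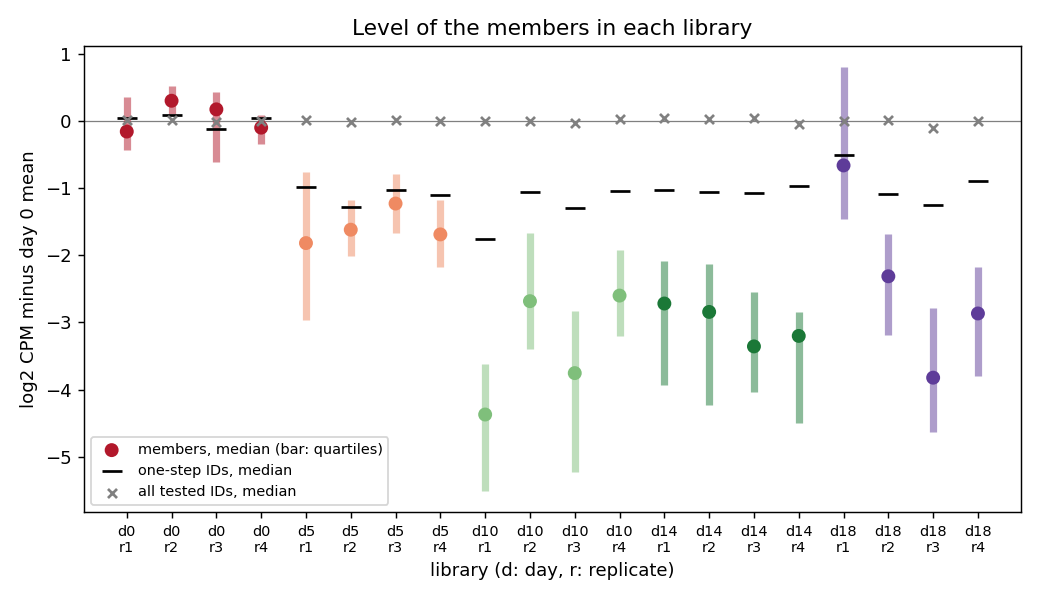
For each of the 20 libraries, the point is the median over the 45 stepwise genes (labelled members) of log2 CPM minus the gene's day 0 mean and the bar spans their quartiles; dashes give the 1075 single-step genes (labelled one-step IDs) and crosses all tested genes. The members sit between −1.82 and −1.23 on day 5 and between −4.37 and −2.60 on day 10, and day 18 ranges from −3.82 to −0.66, while the crosses stay between −0.11 and 0.04.

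Day 5 replicate 1, which stood apart over all genes, was the highest library of its day in 14 of the 45 genes (31.1%) and the lowest in 20 (44.4%). These shares were near those over all tested genes, 35.0% and 36.1%, and the rule used this library. In the 14 genes its level was 1.34 to 10.7 times the median of the other day 5 libraries, and in the 20 it was 0.00603 to 0.712 times. In day 18 replicate 1, 11 of the 14, 5 of the 20 and 7 of the remaining 11 genes were at or above the lowest day 0 library. Over all tested genes 66.8% were. This split by 1 library only describes the 45 genes, and a link between the 2 libraries was not tested. Without day 5 replicate 1, and likewise without replicate 2, the rule found 43 genes, 33 of them among the 45; without replicate 3 it found 31, with 26 among the 45. On day 5 the highest library was most often replicate 3 (23 of 45 genes, 20.3% of all tested), again among libraries that the rule used.

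Late in the cycle, the question is how near the day 18 animals were to the estrous level of the day 0 animals. The day 18 libraries differed. In replicate 1, 23 of the 45 genes (51.1%) were at or above the lowest day 0 library, against 66.8% of all tested genes. Of the 23, 13 were above the highest (28.9% of the 45, against 28.8% of all tested). In replicates 2, 3 and 4, 1, 0 and 1 genes reached the lowest day 0 library, against 78.9%, 55.7% and 77.2% of all tested. The rule chose the 45 as high on day 0, which favours lower shares among them. Among single-step genes, also chosen as high on day 0, the shares at or above the lowest day 0 library were 45.6%, 29.7%, 24.4% and 39.1% in replicates 1 to 4. Replicate 1 was the highest of day 18 in 39 genes, against 24.1% of all tested and 41.7% of single-step genes. Replicate 3 was the lowest in 33 genes, against 44.3% of all tested. The order replicate 1, 2, 4, 3 from high to low held in 22 of the 45 genes and in 9.28% of all tested genes. In 18 genes, replicate 1 was separated from the other 3 by more than Dixon's 95% limit for 4 values, as in 2.61% of all tested genes.

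Set between a gene's day 14 mean (0) and day 0 mean (1) on the log2 scale, the median stepwise gene was at 0.76 in day 18 replicate 1, 0.24 in replicate 2, −0.19 in replicate 3 and 0.01 in replicate 4. The 4 day 5 libraries were at 0.40 to 0.63. Replicate 1 was above every day 14 library in 42 genes, against 24.5% of all tested and 44.8% of single-step genes. Replicate 2 was so in 29 genes, against 23.7% and 22.0%. The rule chose the 45 as low in these day 14 libraries, which favours such counts. For replicates 3 and 4 the counts were 7 and 11, with shares of 15.6% and 24.4% against 17.8% and 16.2% of all tested. Replicate 3 was below every day 14 library in 23 genes, a share of 51.1% against 52.4% of all tested. Among the 550 single-step genes with means at least 1 log2 unit apart, the same positions were 0.72, 0.07, −0.01 and 0.08. The place of replicate 1 near day 0 was therefore shared by genes outside the stepwise set.

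**Figure D5:**
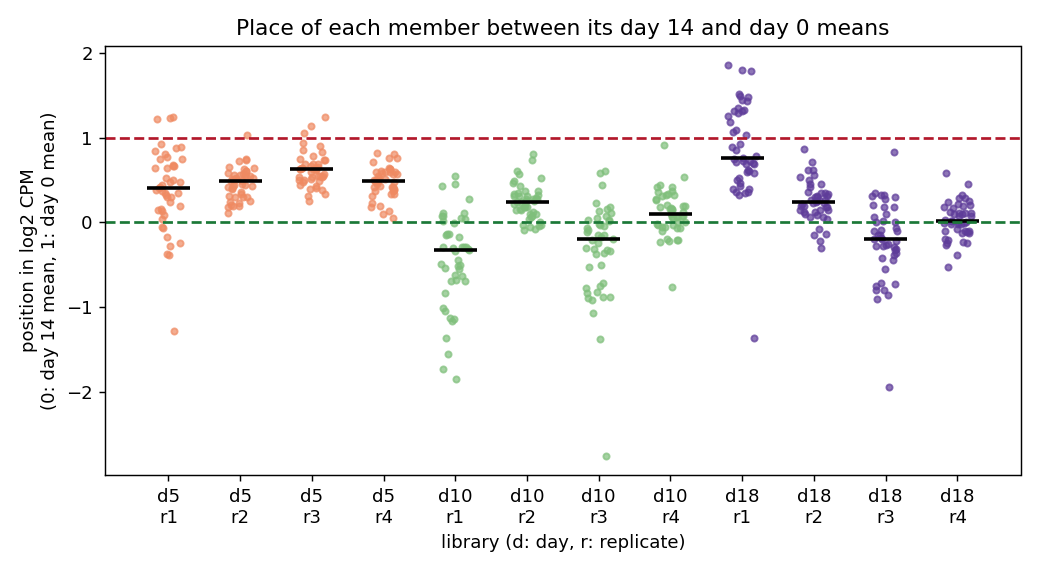
Each point is 1 of the 45 stepwise genes in 1 library of day 5, 10 or 18, placed on the log2 scale between its day 14 mean (0, green dashed line) and its day 0 mean (1, red dashed line), with a black line at the median. Day 18 replicate 1 has a median of 0.76, the other day 18 libraries −0.19 to 0.24, and the day 5 libraries 0.40 to 0.63.

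From day 14 to day 18 no stepwise gene passed the edgeR test (0.0% of all tested genes did). Of the 45 fold changes 43 were positive (8872 of the 16947 tested), and 24 had an unadjusted p under 0.05 (1703 of the 16947). The median log2 fold change was 1.58, against 0.02 over all tested and 0.23 over single-step genes, but it was 0.31, with 33 positive, without day 18 replicate 1. DESeq2 called 2 genes (0.236% of all tested) and voom 0 (0.0%). All 4 day 18 libraries lay above all 4 of day 14 in 2 genes (0.72% of all tested). The day 18 median, with 0.5 added, was at least 1.5 times that of day 14 in 20 genes and at least 2 times in 10. The day 14 libraries helped choose these genes as low, so the size of this difference is not free of the choice.

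Between day 5 and day 18 the edgeR test called 0 stepwise genes (0.0059% of all tested), and 2 had an unadjusted p under 0.05 (2426 of the 16947 tested). DESeq2 called 0 (3.21% of all tested) and voom 1 (6.42%), a smaller share than over all genes. The median log2 fold change was −0.09, against 0.04 over all tested genes. The day 18 median was below that of day 5 in 44 of the 45 genes (59.7% of all tested), and all 4 day 5 libraries lay above all 4 of day 18 in 2 (3.02% of all tested). The rule chose these genes as high on day 5, so this direction is not free of the choice. Without day 18 replicate 1 the median log2 fold change was −1.33, 43 of the 45 were negative and 3 genes were called lower on day 18 (2.55% of all tested were called in either direction). Without day 5 replicate 1 it was 0.06, and single day 18 libraries other than replicate 1 moved it to 0.15 at most.

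Between the day 18 and day 0 animals, 9 of the 45 stepwise genes were higher on day 0 and 0 lower by the edgeR test (1.75% of all tested genes were higher and 1.07% lower; of the 1075 single-step genes, 167 were higher and 0 lower). The day 0 animals were other heifers at the synchronized estrus, not a later estrus of the day 18 animals. Their log2 fold changes ran from 2.16 to 4.64, with adjusted p from 0.00743 to 0.0473, and in all 9 the 4 day 0 libraries lay above the 4 of day 18. Their day 0 medians spanned 8.26 to 424 CPM. The gene with a day 0 median of 424 CPM was at 97.4 CPM in day 18 replicate 1 and at 5.25 to 27.7 CPM in the others. Such separation of 4 and 4 libraries was seen in 22 of the 45 (4.84% of all tested). Over the 45 genes the median log2 fold change was 1.65, against −0.06 over all tested and 0.77 over single-step genes. It was positive in 42 of the 45, in 7576 of the 16947 tested and in 947 of the 1075 single-step genes. The day 0 libraries also chose the genes as high, so these sizes are not independent of the rule. Without day 18 replicate 1, 37 of the 45 were called (13.7% of all tested) and the median log2 fold change was 2.97. When day 0 replicate 1, 2, 3 or 4 was omitted the count was 2, 3, 8 or 3 (0.611%, 0.779%, 1.45% and 0.919% of all tested). It was 2 each when day 18 replicate 2, 3 or 4 was omitted (0.965% to 1.04%). Tested against a 2-fold change, or with the other 12 libraries left out of the fit, 0 were called (0.0472% and 0.233% of all tested). DESeq2 called 24 (9.83%) and voom 37 (12.3%).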

How the data were processed

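The deposited values are raw counts per Ensembl gene ID, 1 library per file per the file headers, with totals that differ between libraries. Per the labels' protocols, TruSeq stranded kits were used on poly(A)-selected RNA; FastQC, STAR and edgeR are named in the submitters' processing notes, without versions or roles. For build, annotation, counter and strand, the entry is "not given in the sources used here", so reads of overlapping genes or near-identical copies may not be told apart. Columns of other samples and rows without an ID numbered 0. Over 30 same-day pairs of libraries, chi-square divided by its degrees of freedom was 27.3 to 563, so none of these pairs were duplicates. Pairs across days were not part of this check. The labels allot separate animals to each day.

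Printed CPM use column totals. Tests used edgeR 4.0.16 (R 4.3.3): filterByExpr, TMM factors (0.869 to 1.10), a robust quasi-likelihood fit with 1 mean per day over all 20 libraries, Benjamini-Hochberg adjusted over 16947 IDs with a threshold of 0.05. Log2 CPM used TMM and a prior count of 2. The SE is the log2 fold change over the square root of F. Alternatives included DESeq2 1.42.0 and limma 3.58.1. On simulated counts with 200 changed IDs, 85% of 4-fold and 33% of 2-fold changes were called from day 18 to day 0 over 16784 IDs. From day 14 to day 18, 78% and 35% were called over 16792. The changed IDs were drawn from tested IDs over a lower limit of mean CPM, so the least abundant tested IDs were left out of the draw. The stepwise genes varied more between libraries (median biological coefficient of variation 0.685, against 0.328 over all tested), so these shares may be too high for them. Members, comparisons and alternatives were chosen with earlier results of these data known. With no names, the named IDs were limited to 2 that fell (highest day 0 median; largest day 0 over day 14) and 2 for higher values (day 0 over day 18; day 18 over day 14), and the planned gene lists and marker lists were not used.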

Additional observations from a re-analysis of the deposited data

Results flagged for a closer look

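Over 25 groups of 4 libraries examined (the summed level of the stepwise genes and the 4 named IDs on each day), 2 held a library far from the other 3 by Dixon's 95% limit, where chance flags about 1 group in 20. The 4 IDs were picked for extreme values, so that rate does not hold for their groups. ENSBTAG00000020564 was at 8.45 CPM in day 10 replicate 2, against 0.0467 to 0.419 CPM in the other day 10 libraries. ENSBTAG00000001010 was at 56.4 CPM in day 18 replicate 1, against 0.903 to 2.59 CPM in the other day 18 libraries. This gene was named for its difference from day 14 to day 18, which rested on that library, so its flag follows from the choice.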

How the results depend on the processing

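The number of stepwise genes was 45 and lay between 31 and 52 with each library of days 0, 5, 10 and 14 left out in turn; it was 20 without day 10 replicates 1 and 3, an alternative chosen after seeing the data. With means in place of medians it was 39, of which 27 were among the 45. From day 18 to day 0 the 9 calls became 0 against a 2-fold change and 0 with only the 8 libraries compared. They became 24 by DESeq2, 37 by voom, and 2 to 37 with each library left out in turn. The count was 14 (3.86% of all tested) with day 10 replicates 1 and 3 and day 18 replicate 3 left out. That alternative was also chosen after seeing the data. The 0 calls from day 14 to day 18 became 2 by DESeq2, and the 0 from day 5 to day 18 became 1 by voom and 0 to 3 with each library left out. From day 10 to day 14 every alternative run gave 0. The causes were not tested, except that a test against a 2-fold change is stricter by construction. For day 14 to day 18, scaling by total counts alone moved the median log2 fold change from 0.02 to −0.11 over all genes and from 1.58 to 1.38 over the stepwise genes. With the replicate number as a block, 8 stepwise genes were called from day 18 to day 0 (2.21% of all tested). In the other comparisons 0 were called (0.0% of all tested). The labels do not say that a number marks shared animals or days: of 40 same-numbered pairs of libraries, 12 had deviations from their day means that correlated over 0.1 (range −0.37 to 0.77), and 11 of 20 libraries correlated best with their own number. Depth limits the lowest values: a stepwise gene had as few as 19 counts over the 4 day 10 libraries and 23 over those of day 14.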
